A study of Rattus norvegicus with 35 samples.

Results

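The genes described here encode acute phase proteins, plasma and airway proteins whose synthesis changes during inflammation. The 10 members are A2m, Serpina3n, Serpina1, Orm1, Lcn2, Lrg1, Hp, Hpx, Cp and Saal1, taken by the gene name that the scanner output gives to each probe outside the controls. They are 10 of 34766 gene names on the array and are carried by 13 of its 45598 probes. All 10 passed the filter on dim probes that left 24473 genes for testing. Each member's brightest probe stands for it, and A2m, Serpina3n and Cp have a second probe.

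Expression was measured in the accessory lobe of the lung of 35 female Sprague Dawley rats, 12 weeks old when dosing began, on 1 single-colour microarray per rat. WT Mitsui-7 and WT NM-403 rats were wild type and received multi-walled carbon nanotubes into the trachea, once a week for 4 weeks, and WT control rats received the vehicle, labelled Pluronic. The p53het Mitsui-7, p53het NM-403 and p53het control rats were treated in the same way and are labelled GMO, heterozygous for p53, with no further account of the allele. A dose of 0.25 mg per rat is labelled, which may be each instillation or the total, and lobes were taken 3 days after exposure. Each group had 6 rats except p53het NM-403, which had 5.

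Acute phase proteins are best known as products of the hepatocyte. Interleukin-6 and related cytokines act on it through STAT3, and interleukin-1 and tumour necrosis factor act through NF-kB and C/EBP factors. Several are also made outside the liver, by airway and alveolar epithelium, macrophages or neutrophils. In the rat, alpha-2-macroglobulin is a major acute phase protein. The proteins limit proteases, bind free haemoglobin, haem, iron and copper, or carry small lipophilic molecules.

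Levels are given as log2 of the processed signal over the 75th percentile of the same array, so that they compare arrays and not probes. Of the non-control spots 66.1% to 86.4% were well above background per array, with 0 saturated spots. There were 5 slides, and arrays on the same slide resembled each other beyond their group (mean residual correlation 0.239, against -0.06 for other pairs). Differences within slides are therefore given beside some of the main ones. Of 10 hepatocyte markers 4 passed the filter: Tf, Cyp2e1 and Ahsg were well above background on 35 of 35 arrays and Ttr on 19. Of the others, Apob was well above background on 0 arrays, Fgb on 1, Apoa1 on 2, Cps1 on 2, Tat on 3 and Alb on 4. All 8 markers of alveolar type 2 cells were measured. In whole tissue, fewer cells of a type and less RNA per cell cannot be told apart.

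Both nanotubes raised acute phase genes, some of them shared. In WT lungs Mitsui-7 raised A2m 10.5-fold, the probe named Saal1 3.69-fold and Serpina3n 3.30-fold, whereas NM-403 raised Orm1 6.03-fold, the probe named Saal1 4.42-fold, Lcn2 2.88-fold and Hpx 2.40-fold. Hp and the probe named Saal1 rose after both nanotubes in both genotypes. The A2m and Orm1 folds depended on the background correction, as given with each gene. Serpina1, which encodes the main plasma inhibitor of neutrophil elastase, was lower after both in p53het lungs.

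The first group of members inhibits proteases. A2m encodes alpha-2-macroglobulin, which traps proteases of every class. Its level in WT Mitsui-7 lungs was -3.60 at the lowest, -3.01 at the median and -2.33 at the highest, against -6.81, -6.52 and -5.78 in WT control lungs. In p53het Mitsui-7 lungs the lowest, median and highest levels were -4.02, -3.40 and -2.43, against -7.63, -6.42 and -5.99 in p53het control lungs. All Mitsui-7 lungs lay above every control of their genotype. The probe was well above background on 6 of 6 WT and 5 of 6 p53het control arrays. A2m rose 10.5-fold in WT Mitsui-7 lungs (log2 3.39 ± 0.26, SE, 6 rats per group, limma adjusted p = 5.31e-11) and 8.99-fold in p53het Mitsui-7 lungs (3.17 ± 0.26, limma adjusted p = 3.57e-10). With normexp background correction, which models the background and adds an offset of 50 to each signal, the rises were 3.26-fold in WT and 2.71-fold in p53het Mitsui-7 lungs (1.71 and 1.44), and both passed. Within slides the WT difference ran from 2.95 to 4.12 and the p53het difference from 2.61 to 3.38.

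After NM-403 the median A2m level lay between those of Mitsui-7 and control lungs. Levels in WT NM-403 lungs were -5.86, -5.12 and -4.48 at the lowest, median and highest, and 5 of 6 lay above every WT control. The rise was 2.36-fold (log2 1.24 ± 0.26, limma adjusted p = 0.0048), and it was not called after normexp background correction (0.49, limma adjusted p = 0.0982). In p53het NM-403 lungs the 5 levels were -5.49, -5.87, -5.29, -5.52 and -6.17, and 4 lay above every p53het control. That difference, 0.87 ± 0.28, missed the threshold in the main model (limma adjusted p = 0.125) and passed it with slide as a block (0.92, limma adjusted p = 0.0204). It also passed without a slide term as the mean over both A2m probes (1.00, limma adjusted p = 0.033) and with array weights (0.72, limma adjusted p = 0.0395). With normexp it was 0.10 (limma adjusted p = 0.747). The second A2m probe lies in the same transcript record and gave differences of 3.00 and 2.84 for Mitsui-7 and 1.04 and 1.14 for NM-403 in WT and p53het lungs. On that probe the NM-403 differences were not called (limma adjusted p = 0.109 and 0.136), and it was well above background on 4 of 6 WT and 3 of 6 p53het control arrays. Its sequence is printed to show which stretch of the A2m transcript it reads.
A2m probe: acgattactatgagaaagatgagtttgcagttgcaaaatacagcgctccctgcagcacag

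Serpina3n encodes a secreted serpin that in the mouse inhibits granzyme B and leukocyte elastase. Its lowest, median and highest levels were -3.06, -2.22 and -1.80 in WT Mitsui-7 lungs, -3.92, -3.68 and -2.84 in WT NM-403 lungs and -4.33, -4.10 and -3.52 in WT control lungs. In p53het Mitsui-7 lungs they were -3.09, -2.15 and -1.56, against -4.65, -4.22 and -3.99 in p53het control lungs. Every Mitsui-7 lung again exceeded every control of its genotype. Serpina3n rose 3.30-fold in WT Mitsui-7 lungs (log2 1.72 ± 0.23, limma adjusted p = 2.66e-06) and 4.19-fold in p53het Mitsui-7 lungs (2.07 ± 0.23, limma adjusted p = 1.65e-07). After NM-403 the differences were 0.51 in WT (limma adjusted p = 0.288) and 0.33 in p53het lungs (limma adjusted p = 0.644), neither past the threshold. The 5 p53het NM-403 levels were -3.59, -4.44, -3.65, -3.98 and -4.03. A second probe with this gene name, whose accession is outside the RefSeq table and which the array describes as gamma-fibrinogen, differed by 0.54 and 0.50 for Mitsui-7 in WT and p53het lungs and was not called (limma adjusted p = 0.217 and 0.27). The mean over both probes gave 1.13 in WT and 1.28 in p53het Mitsui-7 lungs, and both passed.

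The 250 bases before the start of Serpina3n (RefSeq, GRCr8, chr6:129088142-129088391, plus strand) are shown because this promoter held matches to 3 of the 4 motifs searched. The motifs were TTCNNNGAA for STAT dimers, CTGGGAA for the interleukin-6 response element core, TTNNGNAAT for C/EBP and GGGNNTTTC for NF-kB, each on both strands. Over the 33469 promoters of the table, windows of this length held them in 7.67%, 9.56%, 10.9% and 3.7% of cases. Capitals mark the matches: the STAT match at -123 to -115, counted from the base before the start, overlaps the reverse complement of the interleukin-6 core, and a C/EBP match follows at -57 to -49.
Serpina3n: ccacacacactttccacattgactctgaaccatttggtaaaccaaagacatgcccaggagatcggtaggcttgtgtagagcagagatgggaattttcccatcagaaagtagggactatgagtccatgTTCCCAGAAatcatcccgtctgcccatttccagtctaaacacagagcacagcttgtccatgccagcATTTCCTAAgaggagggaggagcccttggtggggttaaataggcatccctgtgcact

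Serpina1 encodes alpha-1-antitrypsin. Its levels were -3.46, -2.70 and -1.79 at the lowest, median and highest in p53het Mitsui-7 lungs and -1.82, -3.42, -2.31, -2.78 and -3.23 in p53het NM-403 lungs. In p53het control lungs they were -2.01, -1.43 and -1.07. The groups overlapped: 4 of 6 Mitsui-7 lungs and 4 of 5 NM-403 lungs lay below every p53het control. Serpina1 fell 2.19-fold in p53het Mitsui-7 lungs (log2 -1.13 ± 0.30, limma adjusted p = 0.0121) and 2.40-fold in p53het NM-403 lungs (-1.26 ± 0.32, limma adjusted p = 0.0318). The NM-403 call was lost without any one of 8 of the 11 arrays compared, with an adjusted p of up to 0.148 when p53het NM-403 replicate 2 was left out. In WT lungs the lowest, median and highest Serpina1 levels were -3.17, -2.35 and -1.63 after Mitsui-7, -2.81, -2.19 and -1.62 after NM-403 and -2.71, -1.86 and -1.08 in controls. The WT differences were -0.50 for Mitsui-7 (limma adjusted p = 0.311) and -0.27 for NM-403 (limma adjusted p = 0.787), and the interaction of genotype with nanotube was not called for Serpina1.

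**Figure D1:**
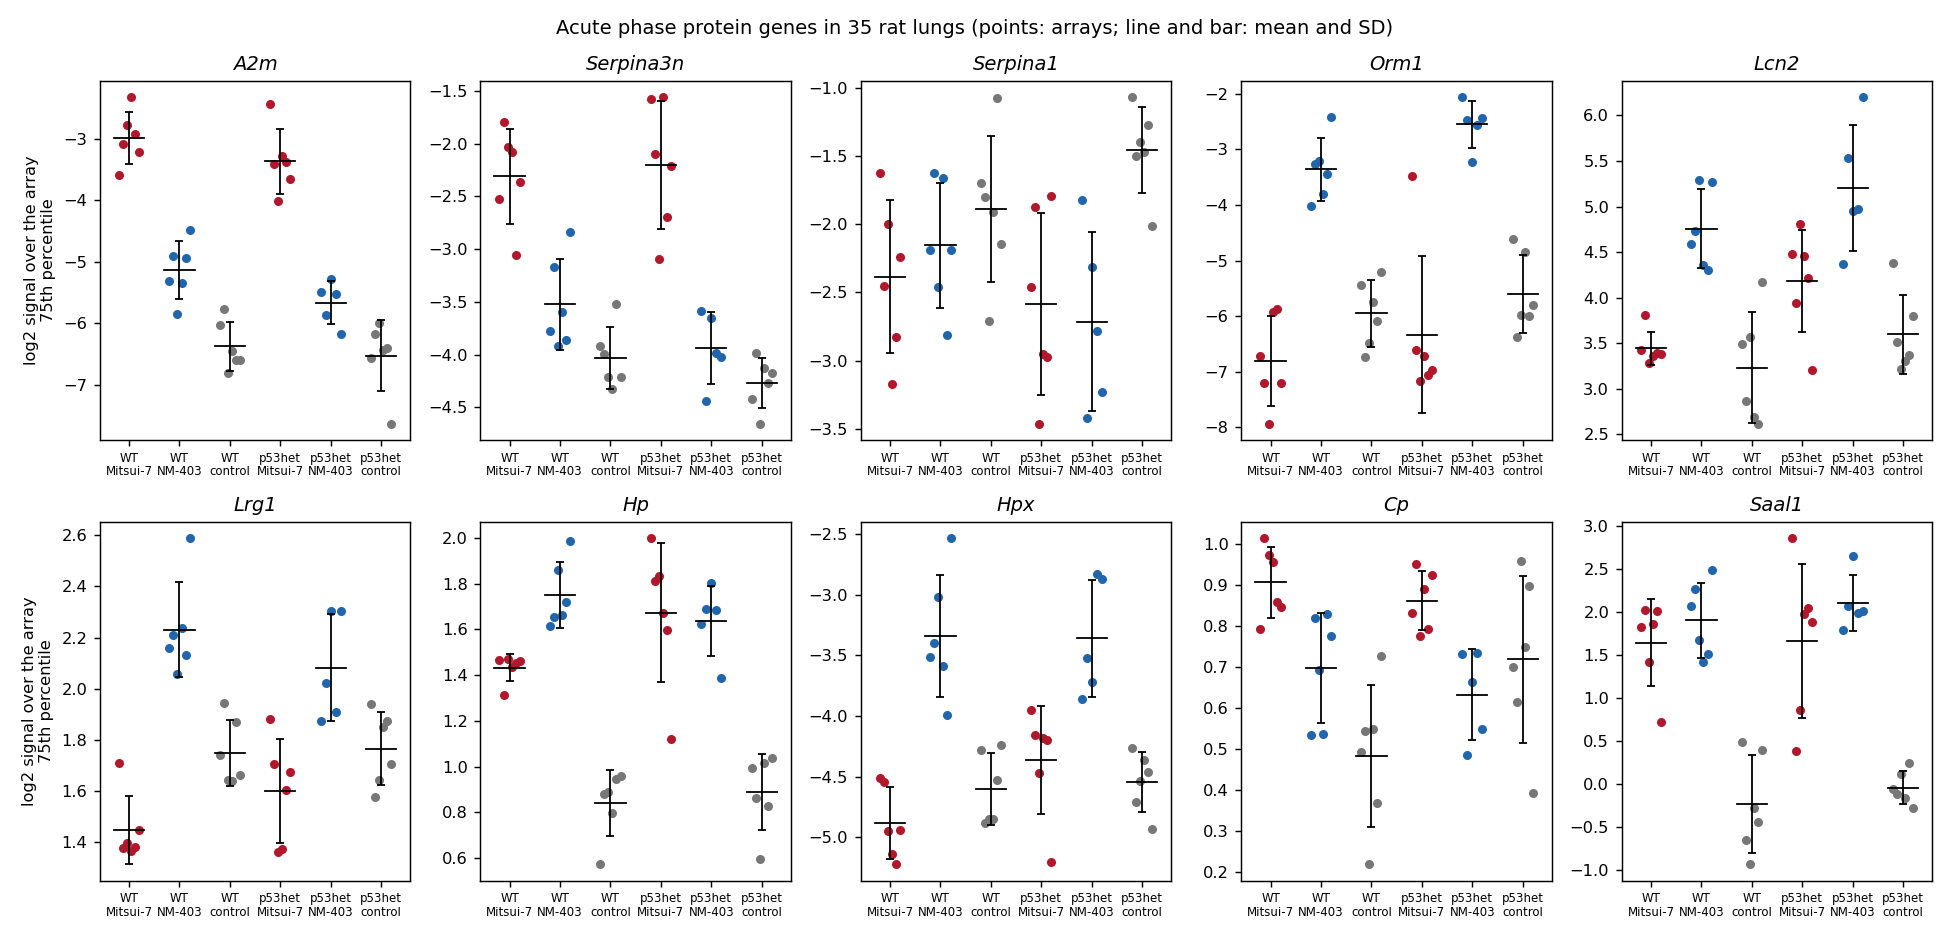
Level of each of the 10 members on each array, as log2 signal over the array's 75th percentile, by group. Points are arrays, the line is the group mean and the bar its SD; A2m is highest in the Mitsui-7 groups and Orm1 in the NM-403 groups, and the vertical scales differ between genes.

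Orm1, Lcn2 and Lrg1 are secreted binding proteins. Orm1 encodes orosomucoid, a plasma lipocalin that carries basic and lipophilic compounds. In WT NM-403 lungs its lowest, median and highest levels were -4.02, -3.35 and -2.41, against -6.74, -5.92 and -5.21 in WT control lungs. In p53het NM-403 lungs the 5 levels were -2.06, -2.47, -3.23, -2.56 and -2.44, against -6.37, -5.89 and -4.62 at the lowest, median and highest in p53het control lungs. No NM-403 lung overlapped the controls of its genotype. Orm1 rose 6.03-fold in WT NM-403 lungs (log2 2.59 ± 0.46, limma adjusted p = 0.000702) and 8.29-fold in p53het NM-403 lungs (3.05 ± 0.48, limma adjusted p = 0.000334), and within slides by 1.72 to 3.27 and by 2.76 to 3.81. With normexp the rises were 2.43-fold in WT and 3.20-fold in p53het NM-403 lungs (1.28 and 1.68), and both passed.

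In Mitsui-7 lungs Orm1 was close to the limit of detection. Its levels were -7.93, -6.95 and -5.87 at the lowest, median and highest in WT Mitsui-7 lungs and -7.16, -6.85 and -3.48 in p53het Mitsui-7 lungs, with 4 of 6 arrays well above background in each group. The difference from WT control lungs was -0.85 ± 0.46 (limma adjusted p = 0.242) and that from p53het control lungs -0.73 ± 0.46 (limma adjusted p = 0.351), and neither passed. With normexp the differences were -0.08 in both genotypes (limma adjusted p = 0.813 in WT and 0.900 in p53het lungs), whereas with quantile normalization the WT difference was -1.38 and passed (limma adjusted p = 0.0376). The p53het Mitsui-7 group holds 1 array that stands apart, replicate 1 at -3.48, with the next highest at -6.61. Without it Orm1 fell by 1.30 in p53het Mitsui-7 lungs (limma adjusted p = 0.0156).

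Lcn2 encodes lipocalin 2, which withholds iron from bacteria by binding siderophores and is found in neutrophil granules and airway epithelium. Its lowest, median and highest levels were 3.28, 3.39 and 3.81 in WT Mitsui-7 lungs, 4.30, 4.66 and 5.30 in WT NM-403 lungs and 2.62, 3.18 and 4.17 in WT control lungs. In p53het lungs they were 3.20, 4.33 and 4.80 after Mitsui-7 and 3.21, 3.45 and 4.38 in controls, and the 5 NM-403 levels were 4.37, 5.54, 4.95, 4.98 and 6.20. Every WT NM-403 lung and 4 of 5 p53het NM-403 lungs exceeded every control of their genotype. Lcn2 rose 2.88-fold in WT NM-403 lungs (log2 1.52 ± 0.28, limma adjusted p = 0.00126) and 3.05-fold in p53het NM-403 lungs (1.61 ± 0.30, limma adjusted p = 0.00179). After Mitsui-7 the differences were 0.21 in WT lungs (limma adjusted p = 0.706) and 0.58 in p53het lungs (limma adjusted p = 0.195), and with slide as a block the second was 0.75 and passed (limma adjusted p = 0.0106).

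Lrg1 encodes leucine-rich alpha-2-glycoprotein, which in the mouse binds the TGF-beta co-receptor endoglin. It moved in opposite directions in WT lungs. Levels were 1.36, 1.39 and 1.71 at the lowest, median and highest in WT Mitsui-7 lungs, 2.06, 2.18 and 2.59 in WT NM-403 lungs and 1.64, 1.70 and 1.94 in WT control lungs. All 6 NM-403 lungs lay above and 5 of 6 Mitsui-7 lungs below every WT control. Lrg1 rose 1.40-fold in WT NM-403 lungs (log2 0.48 ± 0.10, limma adjusted p = 0.00476) and fell 1.23-fold in WT Mitsui-7 lungs (-0.30 ± 0.10, limma adjusted p = 0.044). The fall lost its call without any one of 8 of the 12 arrays compared (adjusted p of 0.0622 to 0.113), although every slide gave a difference between -0.37 and -0.25. In p53het lungs the levels were 1.36, 1.64 and 1.88 after Mitsui-7 and 1.58, 1.78 and 1.94 in controls, and the 5 NM-403 levels were 1.87, 2.02, 2.30, 1.91 and 2.30. The differences were -0.17 for Mitsui-7 (limma adjusted p = 0.333) and 0.32 for NM-403 (limma adjusted p = 0.159), and neither passed.

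The upstream windows of Orm1 (chr5:81788259-81788508, plus strand), Lcn2 (chr3:36081781-36082030, minus strand) and Lrg1 (chr9:1036932-1037181, minus strand; RefSeq, GRCr8) are shown because each of these binding proteins held a motif match. Capitals mark a C/EBP match in Orm1 at -112 to -104 and the interleukin-6 core in Lcn2 at -245 to -239 and in Lrg1 at -151 to -145. Of the 8 members with a promoter in the table, 1 held the STAT motif, 3 the interleukin-6 core, 2 the C/EBP motif and 0 the NF-kB motif. Only the letters GGGNNTTTC were searched for NF-kB, so sites of other letters, also within the marked stretches, would be missed. The windows of Serpina1, Hpx, Cp and Saal1 held none of the 4. The letters of these windows describe sequence only and say nothing of binding.
Orm1: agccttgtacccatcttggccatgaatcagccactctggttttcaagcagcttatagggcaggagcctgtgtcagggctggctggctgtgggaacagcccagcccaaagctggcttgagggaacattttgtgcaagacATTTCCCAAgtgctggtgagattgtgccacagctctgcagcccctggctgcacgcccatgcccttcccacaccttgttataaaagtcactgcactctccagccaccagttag
Lcn2: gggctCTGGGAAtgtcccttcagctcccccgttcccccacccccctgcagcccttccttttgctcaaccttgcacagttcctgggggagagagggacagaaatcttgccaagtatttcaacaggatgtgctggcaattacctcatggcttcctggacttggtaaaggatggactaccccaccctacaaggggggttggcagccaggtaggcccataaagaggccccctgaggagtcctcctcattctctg
Lrg1: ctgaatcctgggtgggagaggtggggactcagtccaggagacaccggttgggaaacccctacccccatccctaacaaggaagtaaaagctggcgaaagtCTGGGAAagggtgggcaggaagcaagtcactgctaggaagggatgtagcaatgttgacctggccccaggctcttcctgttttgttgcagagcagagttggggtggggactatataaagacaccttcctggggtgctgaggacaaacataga

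Hp, Hpx and Cp encode scavengers of haemoglobin, haem and copper. Haptoglobin, the product of Hp, binds free haemoglobin. Its lowest, median and highest levels were 1.31, 1.46 and 1.47 in WT Mitsui-7 lungs, 1.61, 1.69 and 1.99 in WT NM-403 lungs and 0.57, 0.89 and 0.96 in WT control lungs. In p53het lungs they were 1.12, 1.74 and 2.00 after Mitsui-7 and 0.60, 0.93 and 1.04 in controls, and the 5 NM-403 levels were 1.62, 1.69, 1.80, 1.69 and 1.39. No exposed lung overlapped the controls of its genotype. Hp rose 1.51-fold in WT Mitsui-7 lungs (log2 0.59 ± 0.11, limma adjusted p = 0.000181), 1.88-fold in WT NM-403 lungs (0.91 ± 0.11, limma adjusted p = 3.1e-06), 1.72-fold in p53het Mitsui-7 lungs (0.78 ± 0.11, limma adjusted p = 4.97e-06) and 1.68-fold in p53het NM-403 lungs (0.75 ± 0.11, limma adjusted p = 0.000195). Every slide that held both groups gave a positive difference in each of these comparisons.

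Hpx encodes hemopexin, the high-affinity carrier of free haem. Its levels were -5.22, -4.94 and -4.51 at the lowest, median and highest in WT Mitsui-7 lungs, -3.99, -3.45 and -2.53 in WT NM-403 lungs and -4.88, -4.69 and -4.24 in WT control lungs. In p53het lungs they were -5.20, -4.19 and -3.95 after Mitsui-7 and -4.94, -4.50 and -4.27 in controls, and the 5 NM-403 levels were -3.86, -3.52, -3.72, -2.83 and -2.87. All NM-403 lungs of both genotypes exceeded every control of their genotype. Hpx rose 2.40-fold in WT NM-403 lungs (log2 1.26 ± 0.22, limma adjusted p = 0.000559) and 2.27-fold in p53het NM-403 lungs (1.18 ± 0.23, limma adjusted p = 0.00313). After Mitsui-7 the differences were -0.28 in WT lungs (limma adjusted p = 0.459) and 0.18 in p53het lungs (limma adjusted p = 0.669).

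Cp encodes ceruloplasmin, a copper-carrying ferroxidase. Its lowest, median and highest levels were 0.79, 0.91 and 1.01 in WT Mitsui-7 lungs, 0.53, 0.73 and 0.83 in WT NM-403 lungs and 0.22, 0.52 and 0.73 in WT control lungs. All 6 WT Mitsui-7 lungs lay above every WT control, and Cp rose 1.34-fold there (log2 0.42 ± 0.09, limma adjusted p = 0.00085). The second Cp probe gave 0.55 in the same comparison (limma adjusted p = 0.00755). In p53het lungs Cp levels were 0.78, 0.86 and 0.95 after Mitsui-7 and 0.39, 0.72 and 0.96 in controls, and the 5 NM-403 levels were 0.73, 0.49, 0.66, 0.73 and 0.55. The other differences from controls were 0.21 in WT NM-403, 0.14 in p53het Mitsui-7 and -0.09 in p53het NM-403 lungs, and none was called.

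The array's probe named Saal1 cannot be tied to 1 gene. Saal1 (serum amyloid A-like 1) and Saa3, a serum amyloid A gene that lists Saal1 among its synonyms, lie 533 bases apart on chromosome 1, and the accession given for the probe is not among those of the RefSeq table. Its lowest, median and highest levels were 0.72, 1.84 and 2.02 in WT Mitsui-7 lungs, 1.41, 1.87 and 2.49 in WT NM-403 lungs and -0.94, -0.37 and 0.49 in WT control lungs. In p53het lungs they were 0.38, 1.93 and 2.86 after Mitsui-7 and -0.29, -0.09 and 0.24 in controls, and the 5 NM-403 levels were 1.79, 2.08, 2.66, 1.99 and 2.02. Every exposed lung exceeded every control of its genotype. Within slides the difference ran from 0.97 to 2.17 in WT Mitsui-7 and from 0.97 to 2.81 in WT NM-403 lungs. In p53het lungs it ran from 0.13 to 2.53 after Mitsui-7 and from 1.96 to 2.41 after NM-403. The rise was 3.69-fold in WT Mitsui-7 lungs (log2 1.88 ± 0.30, limma adjusted p = 3.82e-05), 4.42-fold in WT NM-403 lungs (2.14 ± 0.30, limma adjusted p = 4.14e-05), 3.27-fold in p53het Mitsui-7 lungs (1.71 ± 0.30, limma adjusted p = 0.000208) and 4.44-fold in p53het NM-403 lungs (2.15 ± 0.32, limma adjusted p = 0.000167). The upstream window of Saa3 held the interleukin-6 core at -141 to -135 and the C/EBP motif at -169 to -161 and at -76 to -68.

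In WT Mitsui-7 lungs 5 members rose and 1 fell, of 10, where 13.7% of all 24473 genes were called (8.94% higher, 4.8% lower), and the members' median difference was 0.32, against 0.04 over all genes. In WT NM-403 lungs 7 rose and 0 fell, where 3.14% of all genes were called (2.28% higher, 0.858% lower), with a median of 1.07, against about 0 over all genes. In p53het Mitsui-7 lungs 4 rose and 1 fell, where 11.6% of genes were called (5.16% higher, 6.49% lower), with a median of 0.38, against -0.03. In p53het NM-403 lungs 5 rose and 1 fell, where 1.52% of genes were called (1.28% higher, 0.241% lower), with a median of 0.81, against -0.07. Of the calls over all genes in WT Mitsui-7 lungs 65.1% were higher, but 46.2% with array median scaling, 36.9% with the values the authors deposited and 49.6% with quantile normalization, and no member's call turned direction with the scaling. Without A2m and Orm1, 4 of the other 8 rose and 1 fell in WT Mitsui-7, 5 and 0 in WT NM-403, 3 and 1 in p53het Mitsui-7 and 4 and 1 in p53het NM-403 lungs. The members were chosen with earlier results of these data known, so these counts describe the list and are no test against the background, and the comparisons within a genotype share their controls.

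**Figure D2:**
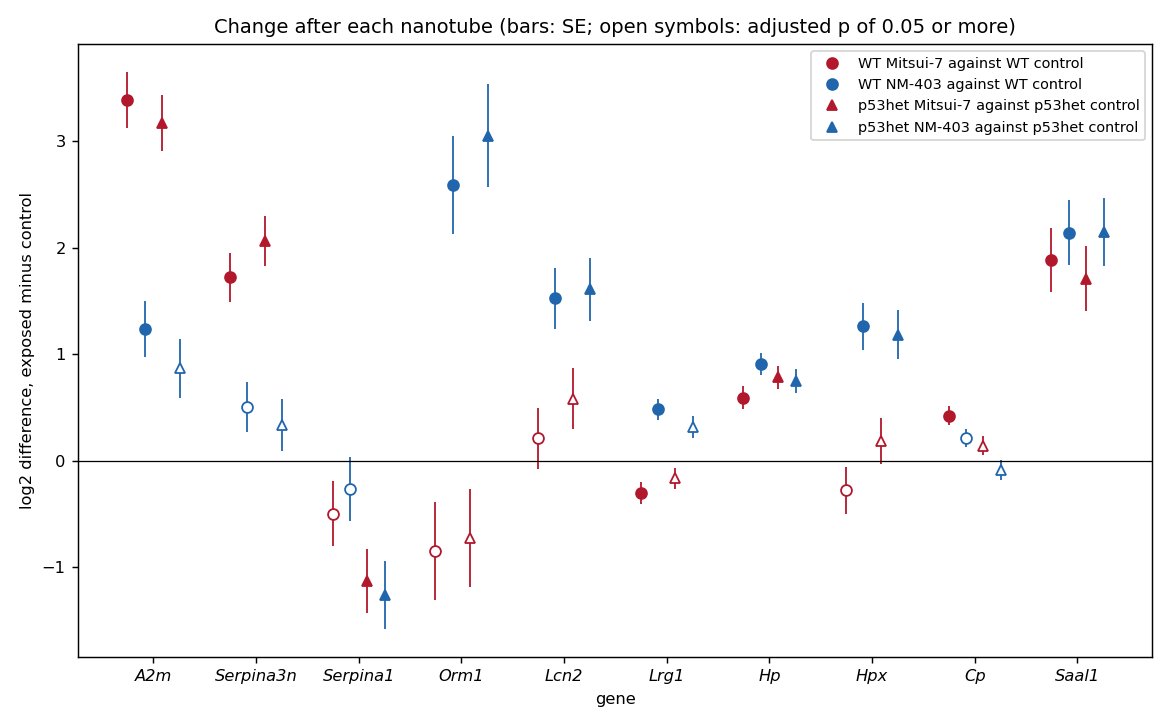
Log2 difference of each member from the control of its genotype, by nanotube and genotype, with SE bars. Open symbols have an adjusted p of 0.05 or more; A2m and Serpina3n lie higher after Mitsui-7 than after NM-403, Orm1, Lcn2 and Hpx lie lower, and Hp and the probe named Saal1 lie above 0 in all 4 comparisons.

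Set directly against each other, the nanotubes separated the members into those higher after Mitsui-7, those higher after NM-403 and those with no call. A2m and Orm1 are given without a test, since the list was drawn up knowing that they differ. A2m stood 4.44-fold higher in WT Mitsui-7 than in WT NM-403 lungs (log2 2.15, within slides 1.41 to 2.98). In p53het Mitsui-7 lungs it stood 4.93-fold higher than in p53het NM-403 lungs (2.30, within slides 1.87 to 2.45). Orm1 stood 10.9-fold lower in WT Mitsui-7 lungs (-3.44, within slides -4.12 to -1.89) and 13.7-fold lower in p53het Mitsui-7 lungs (-3.78, within slides -4.71 to -3.16). With normexp background correction these differences shrank to 1.22 and 1.33 for A2m and to -1.36 and -1.75 for Orm1.

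Of the other 8 members, 1 was higher and 3 were lower in WT Mitsui-7 than in WT NM-403 lungs, where 3.47% of all genes were called (3% higher, 0.474% lower). Serpina3n was 2.32-fold higher (log2 1.22 ± 0.23, limma adjusted p = 0.00125), with 5 of 6 Mitsui-7 lungs above every NM-403 lung. Within slides its difference ran from 0.13 to 1.93. Hpx was 2.91-fold lower (-1.54 ± 0.22, limma adjusted p = 1.98e-05; -0.88 with normexp, which also passed), Lcn2 2.49-fold lower (-1.31 ± 0.28, limma adjusted p = 0.00441) and Lrg1 1.72-fold lower (-0.78 ± 0.10, limma adjusted p = 5e-06). For those members all 6 Mitsui-7 lungs lay below every NM-403 lung. The same held for Hp, whose difference of -0.32 was called only with slide in the model (-0.35, limma adjusted p = 0.0338 as a fixed block).

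In p53het lungs 1 of the 8 was higher and 2 were lower after Mitsui-7 than after NM-403, where 1.35% of all genes were called (1.04% higher, 0.315% lower). Serpina3n was 3.32-fold higher (log2 1.73 ± 0.24, limma adjusted p = 3.44e-05), with all 6 Mitsui-7 lungs above every NM-403 lung. Hpx was 2.00-fold lower (-1.0 ± 0.23, limma adjusted p = 0.016) and Lrg1 1.40-fold lower (-0.48 ± 0.11, limma adjusted p = 0.011). A fit to these groups alone kept 1 of the 3 calls, that of Serpina3n, with limma adjusted p of 0.113 for Hpx and 0.134 for Lrg1, and leaving out p53het NM-403 replicate 5 did the same (0.0768 and 0.0569). Lcn2 was lower by 1.02 with a missed threshold (limma adjusted p = 0.09), which it passed with slide as a fixed block (-0.82, limma adjusted p = 0.0491).

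No call separated the nanotubes for the remaining members in p53het lungs or, beyond Hp, in WT lungs. The 95% interval of the WT difference ran from -0.85 to 0.39 for Serpina1, from 0.03 to 0.39 for Cp and from -0.88 to 0.36 for the probe named Saal1. In p53het lungs it ran from -0.52 to 0.78 for Serpina1, from -0.19 to 0.27 for Hp, from 0.04 to 0.41 for Cp and from -1.09 to 0.21 for the probe named Saal1. A missed threshold does not show equal response.

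**Figure D3:**
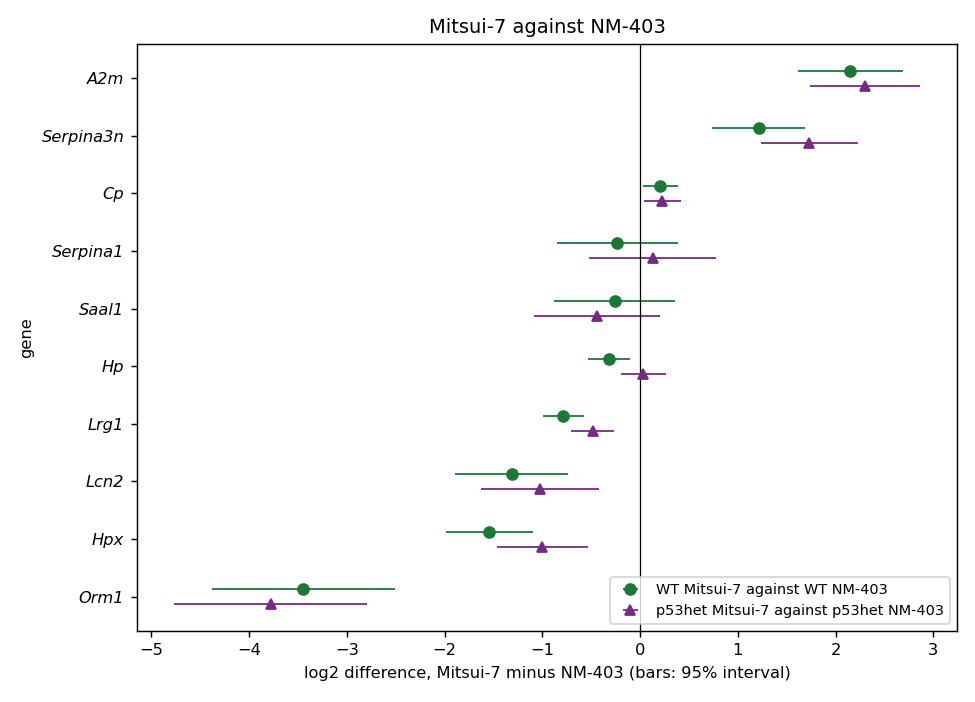
Log2 difference of Mitsui-7 minus NM-403 lungs for each member in each genotype, with 95% intervals. A2m and Serpina3n lie right of 0 and Orm1, Hpx, Lcn2 and Lrg1 left of 0 in both genotypes. A2m and Orm1 were chosen for this difference, so their intervals are no test of it.

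**Figure D4:**
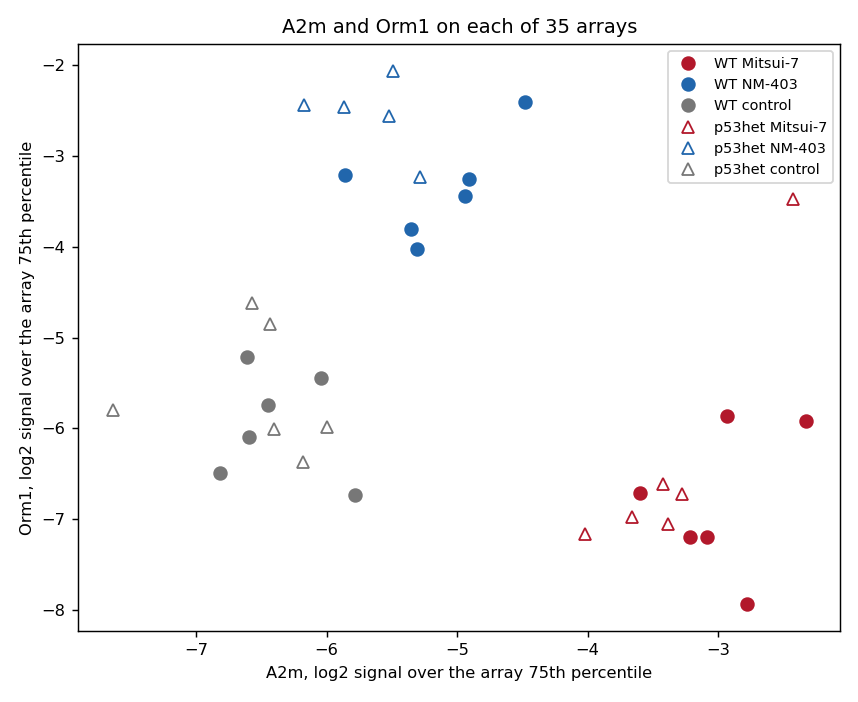
Level of Orm1 against level of A2m on each of the 35 arrays, both as log2 signal over the array's 75th percentile. Mitsui-7 lungs lie at high A2m, NM-403 lungs at high Orm1 and controls at low values of both, and 1 p53het Mitsui-7 array is high in both.

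Genotype called no member. In limma 0 of 10 members passed in p53het control against WT control lungs (1 at an unadjusted p under 0.05, Cp), 0 in p53het Mitsui-7 against WT Mitsui-7 lungs (3 unadjusted: Lcn2, Hp and Hpx) and 0 in p53het NM-403 against WT NM-403 lungs (0 unadjusted). Over all genes the shares called were 0%, 0.00817% (0.00409% higher, 0.00409% lower) and 0%. The interactions of genotype with Mitsui-7 (1 unadjusted, Cp), with NM-403 (2, Serpina1 and Cp) and with the difference between nanotubes (1, Hp) called 0 members and 0% of all genes. The counts stayed at 0 in each of the 25 to 38 settings run per comparison. The Serpina1 call in p53het lungs is therefore not shown to differ from WT lungs: its interaction was -0.64 ± 0.43 for Mitsui-7 and -1.0 ± 0.44 for NM-403 on the log2 scale.

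Within groups, after the group means were removed, the members varied together in part. Lcn2 and Hpx had the highest correlation within groups (r = 0.613, 35 arrays), followed by A2m with Cp (0.534) and Orm1 with the probe named Saal1 (0.50), and Serpina1 and Lcn2 had the lowest (-0.518). A2m and Serpina3n correlated at 0.913 over all arrays and at 0.445 within groups. A2m and Orm1 had r = -0.309 over all arrays and 0.344 within groups. These are descriptions over arrays that share slides and scaling.

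Among the genes with a current symbol and complete values (14641), those with levels most like A2m over the 35 arrays were Prss22 (r = 0.965), Folr2 (0.957), Slamf9 (0.953), Mt3 (0.945) and Tec (0.944). For Orm1 they were S100a9 (0.878), Aqp9 (0.842), Lpo (0.837), Vnn3 (0.814) and Dhrs7 (0.809). For Lcn2 they were Cd177 (0.946), Cfb (0.925), Slc16a6 (0.922), Zbtb48 (0.886) and Entpd3 (0.875). Group differences enter each of these values.

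Markers of 2 leukocyte types moved with the nanotubes. The summed signal of 13 neutrophil markers, of which 11 passed the filter, had a median of 3.52 (1.87 to 4.46) times the array's 75th percentile in WT Mitsui-7, 16.0 (9.32 to 24.3) in WT NM-403 and 4.07 (2.95 to 8.24) in WT control lungs. In p53het lungs it was 3.70 (2.75 to 7.43) after Mitsui-7, 11.7 (9.71 to 20.1) after NM-403 and 4.39 (3.79 to 7.39) in controls. S100a8 and S100a9 made up 80.0% to 97.1% of the sum per array. Without these, a choice made after seeing the values, the sum of the other 11 had medians of 0.51 in WT Mitsui-7, 0.93 in WT NM-403 and 0.44 in WT control lungs, and of 0.48, 0.69 and 0.46 in p53het Mitsui-7, p53het NM-403 and p53het control lungs. The 11 tested markers are another set, with S100a8 and S100a9 and without Elane and Ltf, which failed the filter. Their median difference was 0.51 in WT NM-403 and 0.07 in p53het NM-403 lungs. Within each genotype the summed signal, like the levels of Orm1, Lcn2 and Hpx, was highest after NM-403. Between the NM-403 groups its median was higher in WT lungs, as was that of Hpx, while the medians of Orm1 and Lcn2 were higher in p53het lungs. The part of neutrophils in those differences was not tested. Of the 11 tested, S100a8, S100a9, Cxcr2 and Il1r2 rose in WT NM-403 lungs and S100a9 and Il1r2 in p53het NM-403 lungs, while Fpr1 fell in both Mitsui-7 groups. Over all genes 2.28% were called higher in WT and 1.28% in p53het NM-403 lungs. In Mitsui-7 lungs 4.8% were called lower in WT and 6.49% in p53het rats. The fall of Fpr1 in so short a list does not set it apart from that background. Of the granule genes on the list, Camp was well above background on 35, Mpo on 29, Mmp8 on 28, Ngp on 11, Ltf on 1 and Elane on 0 of 35 arrays.

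The summed level of the 9 macrophage markers had a median of 10.9 (7.03 to 12.6) in WT Mitsui-7, 6.46 (5.95 to 6.93) in WT NM-403 and 5.00 (4.43 to 5.51) in WT control lungs. In p53het lungs it was 10.4 (7.47 to 12.1) after Mitsui-7, 6.69 (5.50 to 9.79) after NM-403 and 5.18 (4.70 to 7.69) in controls. Cd68 weighs most in this linear sum, with a mean log2 level of 2.19 over the arrays, against -0.65 for Cd14, the next brightest. The sum is therefore no even measure of the 9 markers, whose calls are counted under other observations. Within each genotype this sum, like the levels of A2m and Serpina3n, was highest after Mitsui-7, and the part of macrophages in those levels was not tested. Of the 8 markers of alveolar type 2 cells limma called 0 against controls, with 0 after Mitsui-7 and 1 after NM-403 in each genotype at an unadjusted p under 0.05. Between 1.52% and 13.7% of all genes were called in these comparisons.

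Of 10 upstream cytokines of the acute phase 7 were measured. Limma called 0 of 7 in each comparison with control lungs, with 2 or 3 at an unadjusted p under 0.05. The share called over all genes was 13.7% in WT and 11.6% in p53het Mitsui-7 lungs, and 3.14% and 1.52% in NM-403 lungs. A count of 0 in so short a list therefore does not set it apart from the background. Il1b (interleukin-1 beta) differed by 0.15 in WT Mitsui-7 and by 0.44 in WT NM-403 lungs, and Tnf by 0.20 and 0.59. Of their receptors 8 of 9 were measured: Osmr, the oncostatin M receptor, rose in WT Mitsui-7 lungs (0.99 ± 0.32, limma adjusted p = 0.0365), and in p53het Mitsui-7 lungs Il1rap rose (0.46) while Il6r (-0.42) and Lifr (-0.54) fell. After NM-403 limma called 0 of 8 receptors in either genotype (3 unadjusted in WT lungs, 2 in p53het lungs).

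Of 14 signalling genes and transcription factors 13 were measured. Nr3c1, the glucocorticoid receptor, fell in WT Mitsui-7 lungs (-0.35 ± 0.08, limma adjusted p = 0.00146) and in p53het Mitsui-7 lungs (-0.36 ± 0.08, limma adjusted p = 0.00144). Rela, an NF-kB subunit, fell by 0.29 and 0.36 on the log2 scale in the same groups, and Jak2, a kinase of cytokine receptors, rose by 0.36 in WT Mitsui-7 lungs. Stat3 (0.22 and 0.18) and Socs3, its feedback inhibitor (0.10 and 0.39), were not called in WT Mitsui-7 and WT NM-403 lungs. After NM-403 limma called 0 of 13 in either genotype (3 unadjusted in WT lungs, 1 in p53het lungs). Of all genes 3.14% and 1.52% were called there, against 13.7% in WT and 11.6% in p53het Mitsui-7 lungs. The calls named after Mitsui-7 are too few to set this list apart from that background.

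Among 20 other positive acute phase proteins 14 were measured, and none fell after either nanotube. In WT lungs 6 rose after Mitsui-7 and 7 after NM-403, and in p53het lungs 8 and 6, with medians of 0.49 and 0.75 and of 0.65 and 0.57. Over all genes 8.94% and 2.28% were called higher in WT lungs, and 5.16% and 1.28% in p53het lungs. Itih3, an inter-alpha-trypsin inhibitor heavy chain, and the kininogens Kng1 and Kng2 rose in all 4 comparisons, Itih3 by 1.15 ± 0.24 in WT Mitsui-7 and 1.20 ± 0.24 in WT NM-403 lungs. Timp1, an inhibitor of matrix metalloproteinases, was called under Mitsui-7 (0.98 ± 0.13 in WT and 1.03 ± 0.13 in p53het lungs) and not under NM-403, and C3, the central complement component, was called under NM-403 (0.96 ± 0.17 and 0.84 ± 0.18) and not under Mitsui-7. Directly compared, Timp1 was higher after Mitsui-7 than after NM-403 in WT (0.68 ± 0.13, limma adjusted p = 0.00126) and in p53het lungs (0.69 ± 0.14, limma adjusted p = 0.00321). C3 (-0.67 ± 0.17, limma adjusted p = 0.0228), Cfb and C4bpa were lower after Mitsui-7 than after NM-403 in WT lungs and were not called in p53het lungs.

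**Figure D5:**
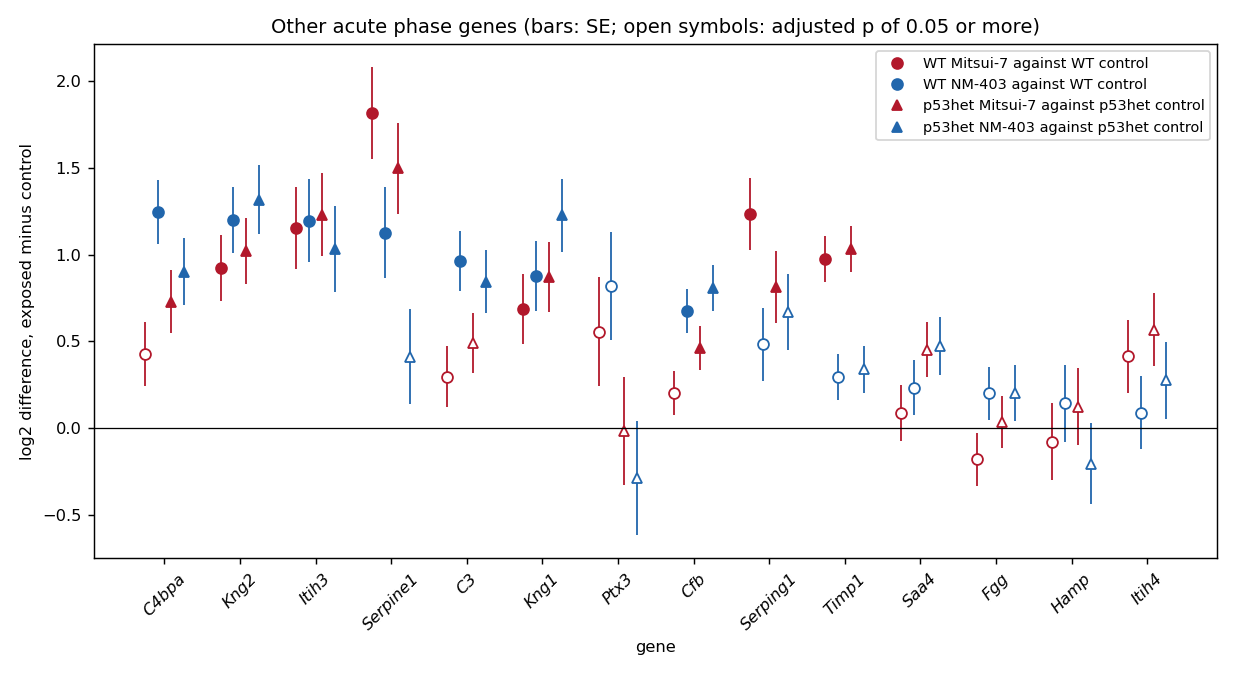
Log2 difference from the control of the same genotype for 14 other positive acute phase genes, with SE bars and open symbols at an adjusted p of 0.05 or more. Itih3, Kng1 and Kng2 are filled in all 4 comparisons, Timp1 under Mitsui-7 and C3 under NM-403.

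Of 8 negative acute phase proteins, which fall in plasma during inflammation, 4 were measured. Alb was well above background on 4 and Apoa1 on 2 of 35 arrays, but Tf and Ahsg on 35 and Ttr on 19. Limma called 0 of the 4 against controls, with 0 or 1 at an unadjusted p under 0.05. Over all genes 1.52% to 13.7% were called in these comparisons. Of 10 receptors and binding partners of the members 9 were measured, and Eng, which encodes the Lrg1 partner endoglin, fell in WT Mitsui-7 (-0.88 ± 0.16, limma adjusted p = 0.000248) and p53het Mitsui-7 lungs (-0.91 ± 0.16, limma adjusted p = 0.000267). The summed level of 7 endothelial markers, cells that carry endoglin, had a median of 34.4 (25.1 to 38.0) in WT Mitsui-7, 39.0 (36.1 to 46.3) in WT NM-403 and 49.8 (45.6 to 53.8) in WT control lungs. In p53het lungs it was 35.0 (28.0 to 39.3) after Mitsui-7, 41.4 (40.1 to 45.7) after NM-403 and 52.8 (47.7 to 54.9) in controls, and its part in Eng was not tested. Cd163, the receptor for haptoglobin bound to haemoglobin, differed by -0.28 in WT Mitsui-7 and -0.57 in WT NM-403 lungs and was not called. Of the 6 proteases that the inhibitors target 3 were measured. Mmp9 rose by 2.88 ± 0.34 in WT Mitsui-7 lungs (limma adjusted p = 2.73e-07) and by 1.42 ± 0.34 in p53het Mitsui-7 lungs (limma adjusted p = 0.0051), and Prtn3, a serine protease of neutrophil granules, by 1.01 and 0.96. After NM-403 0 of 3 were called in either genotype (2 unadjusted in WT lungs, 0 in p53het lungs), where 3.14% and 1.52% of all genes were called. In Mitsui-7 lungs, where Eng, Mmp9 and Prtn3 were called, the shares over all genes were 13.7% in WT and 11.6% in p53het rats.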

How the data were processed

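Single-colour Agilent arrays of 35 rat lungs were read from the scanner output, in which the deposited processed signal is an intensity on a linear scale, background-corrected by the scanner software (the submitters' processing notes name Agilent Feature Extraction 12.0.1.1). A matrix deposited by the authors holds log2 values of 11555 probes and served as an alternative. Every probe has a median of 0 over the arrays, its column medians run from -0.08 to 0.07 and it correlates with the scanner values at 0.994 to 0.999 per array. How its probes were chosen is not stated in the sources used, and it holds 6 of the 10 members.

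Control spots were left out, outlier spots (221 to 699 per array) were set to missing, and log2 signals were set against each array's 75th percentile. Spots of a probe were averaged and the brightest probe stood for a gene. A gene was tested if 5 or more arrays had that probe well above background and each group had 3 or more measured values. One limma 3.58.1 model in R 4.3.3 held a mean per group over the 35 arrays, without a slide term. P-values were adjusted by Benjamini and Hochberg over 24473 genes in each of 12 comparisons, and calls are adjusted p under 0.05. Values after ± are limma's standard errors. The members and gene lists were chosen with earlier results of these data known, and all members are named in every comparison. Same-numbered replicates correlated at a mean of 0.03 after group means were removed (-0.574 to 0.693), so the numbers pair no arrays. The fit was run on simulated data with independent noise per array. Slides were not simulated, so that run says nothing of error rates where arrays share a slide. Probe accessions and promoters were matched by name to RefSeq tables (GRCr8).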

Additional observations from a re-analysis of the deposited data

Results flagged for a closer look

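In 60 combinations of member and group, 6 arrays stood apart from the rest of their group by Dixon's test at the 95% level, where chance gives about 3. The Orm1 level of p53het Mitsui-7 replicate 1 was -3.479, against -6.6072 for the nearest array of its group. The A2m level of p53het control replicate 6 was -7.6348, against -6.5724 for the nearest, and on that array the probe was not well above background. In WT Mitsui-7 lungs the Lcn2 level of replicate 2 was 3.8075 (nearest 3.429), the Hp level of the same array was 1.313 (nearest 1.4353) and the Lrg1 level of replicate 1 was 1.7104 (nearest 1.4464). The Lrg1 level of WT NM-403 replicate 6 was 2.5893 (nearest 2.2368). Leaving out the array that stood apart changed the call of that member for Orm1 alone, which then fell by 1.30 in p53het Mitsui-7 lungs.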

How the results depend on the processing

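No member's called difference turned direction under any alternative, and with the replicate number as a block (replicate block) all 120 member differences kept their side of the threshold. Without single arrays the members called numbered 5 to 6 in WT Mitsui-7, 7 in WT NM-403, 5 to 6 in p53het Mitsui-7 and 5 to 6 in p53het NM-403 lungs against controls. Between nanotubes they numbered 4 in WT and 1 to 4 in p53het lungs, and between genotypes and in interactions 0. A fit to only the groups compared left 1 call between nanotubes in p53het lungs in place of 3. Lrg1 in WT Mitsui-7 lungs also lost its call without the filter on dim probes (limma adjusted p = 0.065), without the 2 arrays farthest in their share of spots above background, a setting added after seeing the data (0.0639), and without WT control replicates 1, 2 or 5 or WT Mitsui-7 replicates 2 to 6 (0.0622 to 0.113). Serpina1 in p53het NM-403 lungs lost its call without the filter (0.0502), in the fit to its groups alone (0.0881) and without p53het control replicates 1 to 5 or p53het NM-403 replicates 2, 4 or 5 (0.0551 to 0.148). In that fit Lcn2 in p53het NM-403 lungs missed at 0.0507. Hpx between nanotubes in p53het lungs was lost with quantile normalization (0.103), with normexp (0.0793) and without p53het Mitsui-7 replicate 6 or p53het NM-403 replicates 4 or 5 (0.0507 to 0.0768), and Lrg1 there without p53het NM-403 replicates 3 or 5 (0.0561 and 0.0569). Lcn2 there was gained without p53het Mitsui-7 replicate 3 (0.0469) or p53het NM-403 replicate 1 (0.0302), and with array weights (0.0245). The cause of these changes was not tested. The share of higher calls over all genes between nanotubes in WT lungs was 86.4%, against 70.1% with array median scaling, 62.9% with the deposited matrix and 73.0% with quantile normalization. In p53het Mitsui-7 lungs it was 44.3%, against 54.8% with quantile normalization. Orm1, at background on 2 of 6 arrays in each Mitsui-7 group, is limited there by signal over background.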

Other observations

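Cell type markers outside the comparisons above also differed between exposures. Over all genes 8.94% were called higher and 4.8% lower in WT Mitsui-7 lungs, and 5.16% and 6.49% in p53het Mitsui-7 lungs. After NM-403 these shares were 2.28% and 0.858% in WT and 1.28% and 0.241% in p53het lungs. Endothelial markers fell for 5 of 7 in WT Mitsui-7 and for 6 of 7 in p53het Mitsui-7 lungs, and cardiac muscle markers for 4 of 5 in each, while limma called 0 of either list after NM-403 (endothelial 5 in WT and 4 in p53het lungs at an unadjusted p under 0.05, cardiac muscle 0 in both). Alveolar type 1 markers fell for 3 of 6 in each Mitsui-7 group, for 1 in WT NM-403 and for 2 in p53het NM-403 lungs. Of 5 mesothelial markers 3 fell and Msln rose in WT Mitsui-7 lungs, 4 fell in WT NM-403 lungs, Bnc1 fell and Msln rose in p53het Mitsui-7 lungs, and Upk3b fell in p53het NM-403 lungs. Of 5 club cell markers Scgb3a2 rose and Cyp2f4 and Bpifa1 fell in WT Mitsui-7 lungs, and Cyp2f4 fell in p53het Mitsui-7 lungs. Macrophage markers rose for 6 of 9 in WT Mitsui-7, 2 in WT NM-403, 3 in p53het Mitsui-7 and 0 in p53het NM-403 lungs (3 unadjusted).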
